A study of Homo sapiens with 9 samples.

Results

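Long noncoding RNAs (lncRNAs) whose symbol is LINC followed by digits are named by number because no function named them. The symbol is meant for intergenic transcripts, but not all of those described here lie apart from coding genes, as given below. The set described here holds the 95 lncRNA rows of the deposited gene table with such a symbol and a mean of 100 or more normalized counts over 9 libraries, out of 60829 rows in all, 16888 lncRNA rows and 2118 LINC-named lncRNA rows. A normalized count is a gene's read count divided by 1 scaling factor per library. LINC01108 and LINC00458 were left out by the rule; LINC01108 had a mean of 35.0 and would not have reached the threshold, and LINC00458 had a mean of 476. Just inside the threshold lay LINC02449 (mean 100.2), LINC01358 (101) and LINC00294 (102), and just outside it LINC02021 (99.0), LINC01952 (98.8) and LINC00910 (96.8). The members were chosen by these measured levels, so that they are expressed is not a finding, and the mean was taken over both groups without regard to the difference between them. In 79 members the mean reached 100 normalized counts in both groups, in 9 in the control alone and in 7 in the knockout alone; a member of the last 2 kinds near the threshold is in the set because 1 group was high.

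The cells were H1, an established human embryonic stem cell line, grown without feeder cells in a defined medium. The labels' treatment field speaks of differentiated cells, and the levels of marker genes are given below. The control was 1 H1 clone labelled chrX-ctrl with genotype WT, collected at 4 sequential passages, and the knockout was 1 H1 clone labelled chrX-KO, which lacks a locus of chromosome X called HERVHlin in the labels, collected at 5 sequential passages. No other allele or agent is named, and the design text treats the passages as technical replicates while the sample titles call them biological, so every p-value below measures the spread between passages of 1 clone per genotype, and clone and genotype cannot be told apart. The question the comparison addresses is which transcripts differ once this locus is missing.

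lncRNAs are transcribed by RNA polymerase II, are often spliced, and tend to be more restricted to cell types than messenger RNAs. In human pluripotent stem cells many of them start in, or contain, copies of the endogenous retrovirus family HERVH, whose long terminal repeat acts as a promoter in these cells. ESRG (embryonic stem cell related gene) is the best known lncRNA derived from HERVH, and LINC00458, LINC01108 and LINC-ROR are others studied in pluripotent cells. For most numbered LINC genes no molecular role is established, and none is given below where none is known.

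Sequence similar to ESRG was found in 9 of the 94 members that have a transcript in GENCODE release 29 (9.57%). It was found in 21 of 642 other lncRNA rows of the same level (3.27%). Over all 14821 lncRNA rows with a transcript, members included, the count was 62 (0.418%). Similarity does not show that the sequence comes from ESRG. The measure was a local alignment (blastn, expectation value of 1e-10 or less) of every annotated lncRNA transcript to the 3140-base ESRG transcript, and it was chosen after the values were seen. In 8 of the 9, the transcript and ESRG read in the same direction: LINC00678, LINC00882, LINC01356, LINC01409, LINC02257, LINC02474, LINC02582 and LINC02700. In LINC01989 the alignment ran in the opposite direction. For each gene, the transcript with the longest alignment was taken. Those of LINC02257 and LINC02474, each 1 of 2 annotated, begin almost at the aligned part. It covers bases 1 to 166 of the former and bases 9 to 160 of the latter. In LINC00882 it covers bases 338 to 497 of a 2718-base transcript and thus lies within it.

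Against the control clone, 6 of the 95 LINC-named lncRNAs were lower in the knockout clone and 0 were higher, at a Benjamini-Hochberg adjusted p of 0.05 in limma, fitted on log2(normalized count + 1) over 27777 rows. All 95 passed the filter on low counts. LINC02315, LINC02523, LINC01950, LINC01374, LINC02257 and LINC02474 fell by 2.96 to 5.20 times in mean normalized count. Over all tested rows 0.425% were lower and 0.115% higher. Among the 681 other lncRNA rows with a mean of 100 or more 1.91% were lower, and among 9955 protein-coding rows of that level 0.291%. At an unadjusted p of 0.05, 20 members were lower and 2 higher, against 5.05% and 3.58% of all tested rows, and 74 and 17 of the 681 other lncRNA rows. Of the 6, 3 (LINC02315, LINC01950 and LINC02474) had a knockout mean under 100 and were in the set through their control level. Among the 79 members with a mean of 100 or more in both groups, limma called 3. The plot of ranked fold changes shows most members close to 0 and a tail of falls.

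**Figure D1:**
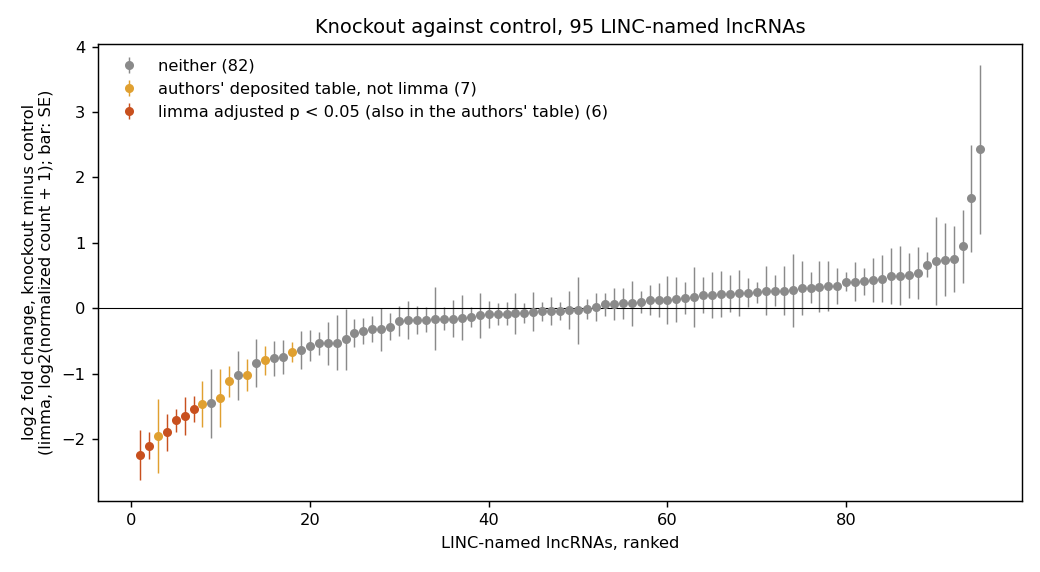
Limma log2 fold change (knockout minus control, on log2(normalized count + 1)) with its standard error for each of the 95 LINC-named lncRNAs, ranked from the lowest to the highest. The 6 called by limma and the 7 called in the authors' deposited table and not by limma all lie on the negative side, down to -2.25, and the highest points, up to 2.43, carry wide error bars.

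LINC02315 lies on chromosome 14 (chr14:40954898-40975877, plus strand, hg38), far from any coding gene. Its control libraries 1 to 4 read 299.6, 157, 193 and 222 normalized counts, and its knockout libraries 1 to 5 read 40.2, 53.0, 51.2, 48.6 and 50.9. Every knockout library lay below every control library, and the knockout values were close to each other. The means were 218 ± 60.6 (SD, n = 4) and 48.8 ± 5.03 (SD, n = 5), a log2 change of -2.10 (SE 0.20, with a limma adjusted p of 0.0019). It passed in all 9 fits with 1 library left out (limma adjusted p at most 0.0080). With the replicate number as a block, a fit in which knockout 5 has no partner and drops out, the limma adjusted p was 0.068.

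LINC02523 lies on chromosome 6 (chr6:125674353-125720218, plus strand), 27446 bases from HEY2, a transcriptional repressor of the Notch pathway. Its control libraries read 341, 427, 340.0 and 432 normalized counts and its knockout libraries 109, 91.3, 104, 136 and 147. The groups did not overlap, and neither held a library far from the rest. The means were 385 ± 51.4 (SD, n = 4) and 118 ± 23.4 (SD, n = 5), a log2 change of -1.72 (SE 0.18, with a limma adjusted p of 0.0028), and it passed both in all 9 fits with a library left out and with the replicate block (0.039). An exon of AL365259.1 lies on its opposite strand, and 66.6% of its 31-base words occur in another gene when both strands are read, against 5.76% on its own strand. The libraries came from a stranded kit, and the sources used here do not say whether counting used the strand.

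LINC01950, on chromosome 5 (chr5:106815197-107011014, minus strand), read 213, 179, 226 and 143 normalized counts in the control libraries and 65.1, 66.5, 81.5, 50.8 and 56.8 in the knockout libraries. Again every knockout library was lower. The log2 fold change was -1.55 (SE 0.20, with a limma adjusted p of 0.0088), with a pass in all 9 fits with a library left out and with the replicate block (0.046). LINC02315, LINC02523, LINC01950 and LINC01374 had no alignment to ESRG.

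LINC01374, a 2-exon transcript of 415 bases on chromosome 10 (chr10:89853906-89914948, plus strand), was the second most abundant member and had the highest level per length, at 17365 normalized counts per kilobase of exon. Its control libraries read 15341, 9460, 16791 and 7359 normalized counts and its knockout libraries 2160.1, 3043, 4297, 3026 and 3380. The lowest control library was above the highest knockout library, with a wide spread among the controls. The means were 12238 ± 4542 (SD, n = 4) and 3181 ± 769.7 (SD, n = 5), a log2 change of -1.90 (SE 0.29, with a limma adjusted p of 0.021). It passed in 3 of 9 fits with a library left out, those without control 4, knockout 1 or knockout 3. Over all 9 such fits its limma adjusted p reached 0.072. With the replicate block it missed the threshold (limma adjusted p of 0.107). None of its 31-base words occurs in another annotated gene.

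LINC02257 and LINC02474 come from 1 locus on chromosome 1, from opposite strands. LINC02257 spans chr1:221880981-221978523 on the minus strand and LINC02474 spans chr1:221966341-221984964 on the plus strand, so that their spans share 12183 bases and each is read across the other's start. LINC02257 read 575, 698, 848 and 219 normalized counts in the control libraries and 71.8, 144, 101, 108 and 136 in the knockout libraries. LINC02474 read 255, 163, 285 and 107 in the control libraries and 46.0, 55.2, 58.2, 68.8 and 73.0 in the knockout libraries. In both, control 4 was the lowest control library and still above every knockout library. The log2 fold changes were -2.25 (SE 0.38, with a limma adjusted p of 0.038) for LINC02257 and -1.65 (SE 0.29, with a limma adjusted p of 0.048) for LINC02474. Each passed in 1 of 9 fits with a library left out, the one without control 4 (limma adjusted p of 0.0024 and 0.0095). Over all 9 such fits the limma adjusted p reached 0.143 and 0.136. Neither passed with the replicate block (limma adjusted p of 0.134 and 0.198). LINC02474 also missed the threshold with no filter on low counts (limma adjusted p = 0.065). The transcript with the longest alignment to ESRG, 1 of 2 annotated for each gene, begins almost at the aligned part.

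The calls depended on the test. The authors' deposited table, made with DESeq2 by its column names, calls 13 of the 95 lower and 0 higher at an adjusted p of 0.05, where 1.53% of its rows with an adjusted p are lower. The 13 are the 6 above and LINC02700, LINC01989, LINC00882, LINC00698, LINC02751, LINC01356 and LINC01896. LINC02751 and LINC01896 also had knockout means under 100 (54.5 and 99.45) and were in the set through their control level. DESeq2 run on the recovered reads called 12 of these 13, all but LINC01896, where 1.62% of rows were lower. The edgeR quasi-likelihood test called the same 6 as limma (background 0.432%). With the replicate block 2 were called, LINC02523 and LINC01950 (background 0.104%). The counts do not overlap between the clones in 11 members that were lower in every knockout library (2.6% of all tested rows) and in 1 that was higher in every knockout library, LINC02585 (1.35% of all tested rows).

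**Figure D2:**
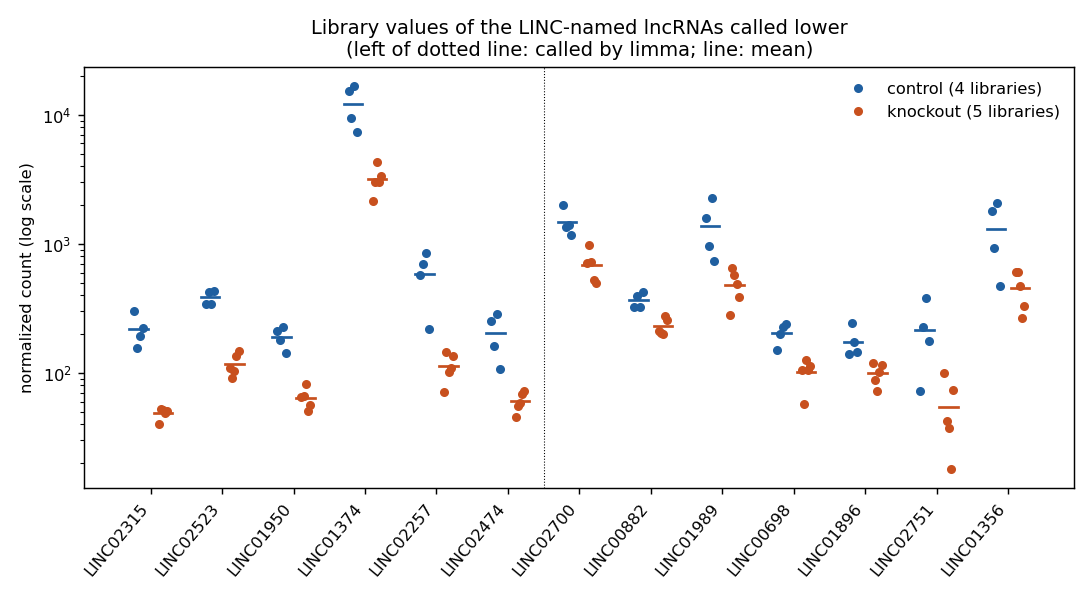
Normalized count (log scale) in each of the 4 control and 5 knockout libraries for the 13 LINC-named lncRNAs called lower; points are libraries, lines are group means, and the 6 left of the dotted line are called by limma. Only LINC02751 and LINC01356, both right of the line, have control and knockout libraries that overlap.

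Of the 7 called in the authors' deposited table and not by limma, LINC02700 came closest in limma. Its control libraries read 2003, 1355, 1398 and 1179.6 normalized counts and its knockout libraries 717, 987, 718, 528 and 499. The groups were apart, with a log2 change of -1.12 (SE 0.23, with a limma adjusted p of 0.093); the authors' deposited table gives -1.11 and an adjusted p of 0.00075. LINC02700 shares exon sequence with AP000943.1 on its own strand, and 10.3% of its 31-base words occur in another gene. LINC01989 read 1596, 956, 2257 and 737.0 normalized counts in the control libraries and 281, 651, 572, 493 and 387 in the knockout libraries, with the largest spread in the controls (log2 fold change -1.46 with SE 0.36, adjusted p of 0.165 in limma). Its span and exons overlap those of ASIC2 on the same strand. ASIC2 encodes an acid-sensing ion channel and measured 7.38 ± 2.61 (SD, n = 4) and 6.57 ± 2.46 (SD, n = 5) normalized counts.

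The other 5 showed smaller or less even differences. LINC00882 read 323 to 422 normalized counts in the control libraries and 199 to 279 in the knockout clone, a log2 change of -0.67 (SE 0.16, with a limma adjusted p of 0.154). LINC00698 read 152 to 238 and 57.5 to 127 normalized counts, and LINC01896 141 to 242 and 72.2 to 119.7, with log2 fold changes of -1.02 and -0.80. In LINC01356, control 4 at 472 normalized counts lay below the knockout libraries 1 and 2, at 611 each. In LINC02751, control 1 at 72.3 normalized counts lay below the knockout libraries 1 and 5, at 101 and 73.7. None of these 5 passed in limma in any of the 9 fits with a library left out.

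Set by sequence, the 9 ESRG-aligned members had a median log2 fold change of -1.38, with 8 negative values and 2 called lower. The exception was LINC01409, which read 288 to 640 normalized counts in the control libraries and 433 to 733 in the knockout clone (log2 fold change 0.32, SE 0.24). Its aligned piece was the last 61 bases of a 1873-base transcript, and 31.9% of its 31-base words occur in another gene. The 85 members without an alignment had a median of -0.01, with 43 negative and 42 positive values and 4 called lower. In the other lncRNA rows of the same level, LINC00458 among them, 6 of 21 with an alignment were lower (median -0.92) and 7 of 621 without one (median 0.06). LINC02582 read 302, 279.7, 308 and 101 normalized counts in the control libraries and 215, 134, 62.9, 44.8 and 45.0 in the knockout libraries, which overlap through control 4 (log2 fold change -1.46 with SE 0.53, adjusted p of 0.44 in limma). These are descriptions without a test. On their own strand, 8.17% of the 31-base words of LINC02257 and 8.57% of those of LINC02474 occur in another gene, and how the counting divided reads of shared sequence was not tested.

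**Figure D3:**
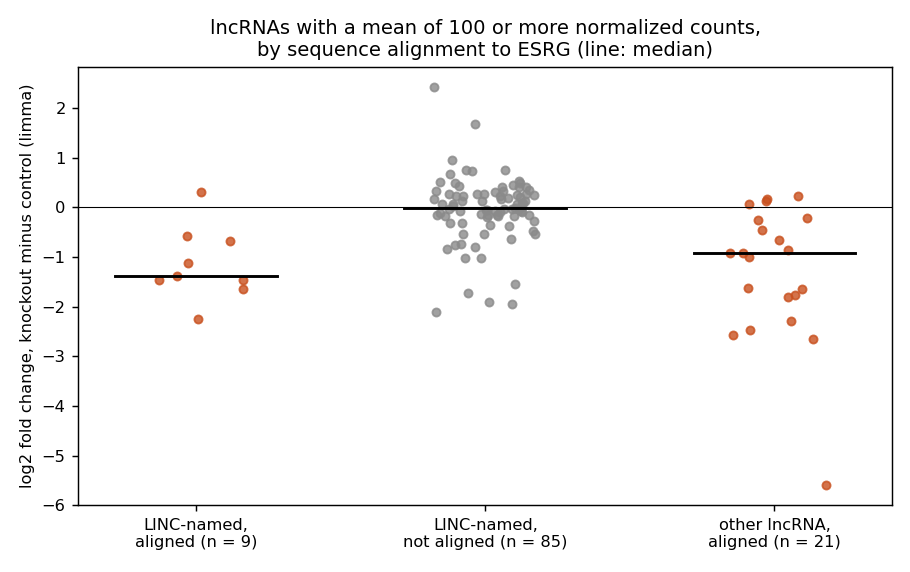
Limma log2 fold change (knockout minus control) of lncRNAs with a mean of 100 or more normalized counts, for LINC-named lncRNAs with and without an alignment to ESRG and for other lncRNAs with one; points are genes and lines are medians. The medians are -1.38 (n = 9), -0.01 (n = 85) and -0.92 (n = 21), and 1 of the 9 aligned LINC-named lncRNAs is above 0.

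ESRG itself measured 7945 ± 3598 (SD, n = 4) normalized counts in the controls and 3938 ± 956 (SD, n = 5) in the knockout, a log2 change of -0.95 (SE 0.29, with a limma adjusted p of 0.30). Of 6 other genes studied as lncRNAs of pluripotent cells that are not members (TUNAR is typed as protein-coding in the table), LINC01108 was called lower (log2 fold change -2.49 with SE 0.37, adjusted p of 0.020 in limma), and LINC00458 (-1.81), LNCPRESS1 (-0.66), LINC-ROR (-0.65) and TUNAR (-0.47) were not; 5 of the 6 were lower at an unadjusted p of 0.05 (5.05% of all tested rows), and DESeq2 called 3. A list of 6 lncRNAs, chosen as abundant ones, held the nuclear speckle RNA MALAT1 (log2 fold change 0.56) and the snoRNA hosts GAS5 (-0.37) and SNHG1 (-0.09). Not all were abundant here, with means of 137 normalized counts for NEAT1, 33.9 for KCNQ1OT1 and 1.95 for MEG3, which was not tested. Of the 5 tested, 0 were called by limma, edgeR or DESeq2 or passed an unadjusted p of 0.05.

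Of the 2 members in a list of development-linked LINC genes, 0 were called by limma, edgeR or DESeq2. LINC00678 was lower at an unadjusted limma p of 0.05, as were 5.05% of all tested rows. LINC00678, a transcript of pluripotent cells that aligns to ESRG over its bases 47 to 295, was the third most abundant member. Its control libraries read 4497, 4364, 6401 and 2911 normalized counts and its knockout libraries 2549, 3565, 3676, 2542 and 2562. The groups overlapped through control 4, with a log2 change of -0.58 (SE 0.24, with a limma adjusted p of 0.53). LINC00632, the gene from whose transcript the circular RNA CDR1as is made, measured 1475 ± 684 (SD, n = 4) and 1111 ± 268 (SD, n = 5) normalized counts with overlapping groups (log2 fold change -0.32, SE 0.33). The exons of LINC00632 overlap CDR1 on the opposite strand. The circular RNA was not measured apart from the gene, and whether its reads are part of these counts was not tested.

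In a list of 12 LINC genes studied in cancer or stress, 8 were in the table under that symbol and 6 were members, of which 0 were called by limma, edgeR or DESeq2 or passed an unadjusted p of 0.05. LINC00665 measured 1008 ± 244 (SD, n = 4) and 887 ± 88.8 (SD, n = 5) normalized counts, and LINC00467 measured 248 ± 40.3 (SD, n = 4) and 234 ± 33.9 (SD, n = 5). Their log2 fold changes were -0.16 (SE 0.17) and -0.08 (SE 0.17). LINC00339 (-0.16, SE 0.28), LINC00662 (-0.07, SE 0.15), LINC00511 (-0.05, SE 0.29) and LINC00667 (0.16, SE 0.24) also had log2 fold changes smaller than their standard errors. Of 7 LINC names that were later renamed for a small protein they encode, 0 were found under the LINC symbol.

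Across all 95, the median log2 fold change was -0.04, with 51 negative and 44 positive values and 63 within 0.5 of 0. The median was 0.01 over all tested rows, 0.04 over the other lncRNA rows of this level and -0.11 over the protein-coding rows of this level. LINC02585, a 196-base exon transcript that starts 861 bases from CELSR3, a cadherin-type receptor, had the highest value. Its control libraries read 124, 123, 0 and 92.1 normalized counts and its knockout libraries 214, 283, 178, 132 and 156. Every knockout library was higher than every control library, but control 3 held 0 reads, where a count of 0 allows up to 3 reads or 2.73 normalized counts. The log2 change of 2.43 (SE 1.29, with a limma adjusted p of 0.66) rests on that zero (0.73 without control 3), the only zero among the members' values. LINC02335 followed, with 8.50, 54.4, 100.3 and 281 normalized counts in the control libraries and 128 to 389 in the knockout libraries, which overlap (log2 fold change 1.68, SE 0.82, and 0.78 without control 1 or 2.41 without control 4). LINC00894 (0.95), LINC00868 (0.75) and LINC01358 (0.74) came next, with limma adjusted p values of 0.70, 0.74 and 0.77. LINC02585, LINC00894 and LINC01358 had control means under 100 (84.8, 73.6 and 81.7) and were in the set through their knockout level.

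Levels spanned from 100.2 to 10203 mean normalized counts, with a median of 160; 57 members were under 200 and 14 at 500 or more. LINC00273 took 22.0% of the members' sum and LINC01374 15.6%. LINC00273, a single-exon transcript of 1452 bases on chromosome 16 with 70.4% GC, read 9982, 16991, 4680 and 8359 normalized counts in the control libraries and 15325, 17710, 9479, 5511 and 3789 in the knockout libraries. Libraries of both groups were high and low, the log2 fold change was -0.03 (SE 0.51), and its sign changed with the scaling (0.01 with TMM and 0.22 with quantile normalization). Control 2, knockout 1 and knockout 2, where LINC00273 was highest, had 27.5%, 26.3% and 32.3% of their reads in protein-coding rows. Control 3, knockout 4 and knockout 5, where it was lowest, had 50.8%, 43.5% and 47.5%. Whether its level follows the make-up of the library was not tested. Per kilobase of exon, LINC01374 was at the top and LINC00511, with 106 annotated transcripts, at the bottom with 3.73 normalized counts, and the median member had 79.4. LINC01194 (log2 fold change -0.32), LINC01829 (-0.35) and LINC01002 (0.07) completed the 10 most abundant with LINC00678, LINC00632, LINC02700, LINC00665 and LINC01989, and none of these 3 was called. In LINC01002, 77.8% of the 31-base words occur in another gene, and in 11 members this share was over 30%, with 97.6% in LINC01670, so the values of those genes are uncertain.

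The libraries differed in ways that the groups do not account for. Depth was 19838682 to 31192630 recovered reads, of which the members took 0.137% to 0.259% and protein-coding rows 26.3% to 50.8%, with control 3 highest in the latter. The median member was 0.23 lower on the log2 scale in control 3 than its mean over the 9 libraries and 0.32 higher in control 4, while the median coding row was 0.47 higher in control 3 and 0.17 lower in control 4. Control 3 was the lowest of the 4 controls for 45 members (47.4%) and control 4 the highest for 43 (45.3%). Within the knockout clone, library 3 was the lowest for 37 members and library 4 the highest for 38. Control 3 was also the lowest control for 48.9% of the other lncRNA rows, whereas it was the lowest for 7.99% of the coding rows and the highest for 68.2%. The coefficient of variation of the median member was 0.356 over the control libraries and 0.241 over the knockout libraries. It was 0.343 and 0.245 in the other lncRNA rows of this level, 0.368 and 0.257 in all tested rows, and 0.275 and 0.167 in coding rows. The spread of the members was thus close to that of other lncRNA rows. The part of these library differences in the fold changes was not tested beyond the fits with a library left out.

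**Figure D4:**
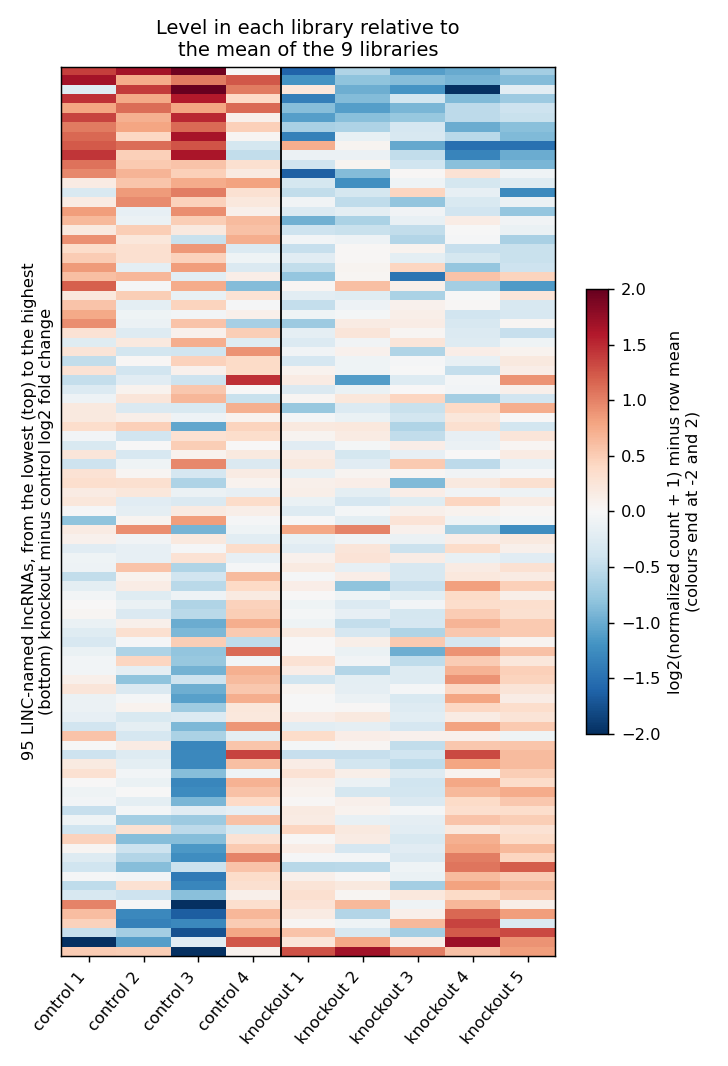
Level of each of the 95 LINC-named lncRNAs (rows, ordered by knockout minus control log2 fold change) in the 9 libraries (columns), as log2(normalized count + 1) minus the row's mean. The top rows are red in the controls and blue in the knockout libraries, while in the lower part control 3 is blue and control 4 and knockout 4 and 5 are mostly red.

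The cells' state was read from marker genes. The sum of 8 pluripotency genes, among them POU5F1, NANOG and SOX2, ran from 30813 to 70499 normalized counts in the control libraries and from 25641 to 39603 in the knockout libraries. The sums of 4 endoderm genes reached at most 7.44, and those of 4 mesendoderm genes 35.7. PAX6 had a median of 5.75 and SOX1 of 0.90, while the collagen gene COL1A1 and the surface protein gene THY1 of a fibroblast list were present at medians of 537 and 2852, with LUM at a median of 0. The sums of 5 neural genes ran from 1342 to 3356 in the controls and from 1277 to 1778 in the knockout libraries. NES and TUBB3 had lower means in the knockout. MAP2, PAX6 and SOX1 had higher means there (236, 10.1 and 0.95, against 156, 4.47 and 0.49 in the controls). Those of 5 trophectoderm and amnion genes ran from 101 to 224, mostly KRT7. The labels' treatment field speaks of differentiated cells. Endoderm and mesendoderm markers were near 0 and the pluripotency genes were expressed, but the neural and fibroblast sums were not near 0. The 5 fibroblast genes summed to 3227 to 5811 in the controls and 2877 to 4505 in the knockout libraries. These sums were uneven. In the fibroblast list THY1 had the highest median, COL1A2 had 633, and DCN with 15.7 and LUM with 0 had the lowest. In the neural list TUBB3, NES and MAP2 had medians of 837, 434 and 184, far above PAX6 and SOX1. Whether some of the cells had differentiated was not tested. The range of the pluripotency genes lay lower in the knockout libraries, with an overlap, and its part in the 6 falls was not tested; in bulk RNA, fewer cells of a type and less RNA per cell cannot be told apart. The 3 rows the authors mark as knocked out held 1316 to 3935, 1711 to 3433 and 312 to 1036 normalized counts in the controls and 25.9 to 73.0, 1150 to 1861 and 68.0 to 169 in the knockout libraries, so that 2 of the 3 did not overlap.

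By position in GENCODE release 29 (GRCh38), 94 of the 95 were placed, on 21 chromosomes with 8 on X, and LINC02822 was not. The span of 18 overlapped a protein-coding gene, 16 more lay within 10 kb of one and 24 lay over 100 kb away, with a median distance of 26477 bases. The nearest coding gene had passed the filter for 73 members, of which 41 had a log2 fold change of the same sign and 32 of the opposite sign. For the 6 called members, the 5 distinct nearest coding genes were not called by limma, edgeR or DESeq2, and 2 passed an unadjusted limma p of 0.05, as did 13 of the 73. At that p, 5.05% of all tested rows were lower and 3.58% higher. DUSP10, a phosphatase of stress-activated kinases nearest to both LINC02257 and LINC02474, had a log2 change of -0.44 (SE 0.55), KIF20B, a kinesin near LINC01374, of -0.18 (SE 0.15), HEY2 of -0.30 (SE 0.32) and EFNA5, an ephrin ligand near LINC01950, of -0.40 (SE 0.13). LRFN5, a synaptic adhesion protein 631693 bases from LINC02315, measured 25.3 ± 12.0 (SD, n = 4) and 6.10 ± 6.70 (SD, n = 5) normalized counts (log2 fold change -2.17 with SE 0.70, adjusted p of 0.34 in limma).

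SALL3, a zinc finger gene that starts 1201 bases from LINC01896 on the other strand, had a mean of 371 ± 103 (SD, n = 4) and 168 ± 76.9 (SD, n = 5) normalized counts, a log2 change of -1.23 (SE 0.36, with a limma adjusted p of 0.26) beside -0.80 in LINC01896. CADPS, which acts in vesicle release and lies 75041 bases from LINC00698, stood at -0.93 (SE 0.37), SLC16A1, a lactate transporter near LINC01356, at -0.42 (SE 0.17) and PIWIL4, near LINC02700, at 0.27 (SE 0.41). The only nearest coding gene that was called was ZNF717, a zinc finger gene whose exons overlap LINC00960 on the opposite strand; the pair was picked after its values were seen. ZNF717 read 225, 152, 225 and 223 normalized counts in the control libraries and 5.75, 5.64, 6.99, 7.47 and 2.95 in the knockout libraries (log2 fold change -4.97 with SE 0.28, adjusted p of 5.7e-05 in limma). LINC00960 read 129, 87.0, 111 and 148 normalized counts in the control libraries and 92.0, 124, 107, 86.7 and 75.9 in the knockout libraries, which overlap (log2 fold change -0.28, SE 0.21). The members of this overlapping pair thus had fold changes of different size.

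**Figure D5:**
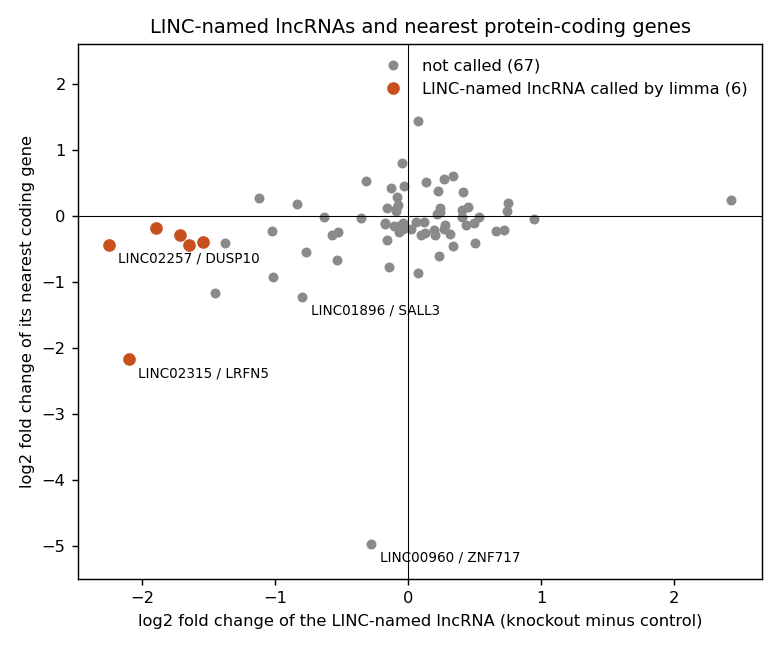
Limma log2 fold change (knockout minus control) of 73 LINC-named lncRNAs (x axis) against that of the nearest protein-coding gene that was tested (y axis); each point is a lncRNA, and orange points are the 6 called ones. Of the orange points 5 have a neighbour between -0.44 and -0.18, LINC02315 lies beside LRFN5 at -2.17, and the lowest point is LINC00960 with ZNF717 at -4.97.

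Promoter windows of 300 bases (250 before and 50 after the start) were found by symbol for 56 of the 95 members in RefSeq (GRCh38.p14). Searched on both strands, CCAAT occurred in 26 of them (46.4%, against 36.0% of 1742 LINC-named promoters and 34.6% of all 35116) and GGGCGG in 19 (33.9%, against 18.9% of LINC-named and 45.0% of all promoters). TATAAA occurred in 6 (10.7%, against 16.2% and 11.5%) and the octamer ATGCAAAT in 2 (3.57%, against 2.76% and 1.77%), those of LINC00641 and LINC02197. Median GC was 48% in the members, 47.7% in LINC-named promoters and 58.7% in all promoters. Of the 4 called members without an ESRG alignment, this table held LINC02523 (chr6:125674103-125674402, plus strand) and LINC01374 (chr10:89853656-89853955, plus strand), shown because their annotated transcripts have no alignment to ESRG. The windows themselves were not compared with ESRG here. Neither window holds any of the 4 motifs, so none is in capitals.
LINC02523: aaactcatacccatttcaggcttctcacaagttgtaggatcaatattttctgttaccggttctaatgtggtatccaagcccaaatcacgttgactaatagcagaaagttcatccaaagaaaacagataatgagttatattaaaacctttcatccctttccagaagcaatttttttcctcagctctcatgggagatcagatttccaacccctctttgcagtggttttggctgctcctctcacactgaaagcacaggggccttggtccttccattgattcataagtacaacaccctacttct
LINC01374: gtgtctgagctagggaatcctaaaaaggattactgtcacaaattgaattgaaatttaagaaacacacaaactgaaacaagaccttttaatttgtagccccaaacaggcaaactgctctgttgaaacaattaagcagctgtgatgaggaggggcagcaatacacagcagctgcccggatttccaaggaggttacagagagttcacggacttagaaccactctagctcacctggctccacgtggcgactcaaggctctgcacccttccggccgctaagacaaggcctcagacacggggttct
The LINC02523 window has 41% GC and the LINC01374 window 48%. No match says only that these letters are not in these windows.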

How the data were processed

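RNA of 9 libraries (4 control and 5 knockout passages) was sequenced after removal of ribosomal RNA with a stranded kit, per the labels' protocols. Per the submitters' processing notes fastp, kallisto, DESeq2 and hg38 were used, with no versions, roles or order. The sources used here do not give the annotation or the use of strand. The values deposited by the authors are normalized counts (a signal: gene counts divided by 1 size factor per library), and the authors' log2 fold changes, their test score and p-values stand beside them in the deposited table. Within 1e-06, 100% of the values were whole multiples of 1 step per library, and the reads were recovered from that step. Kallisto divides reads shared by transcripts by estimation.

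The main test was limma (3.58.1, R 4.3.3) with a trend on log2(normalized count + 1) over 27777 rows that passed edgeR's filterByExpr (minimum count 10) on the recovered reads, group only, with Benjamini-Hochberg adjustment over all of them and a threshold of 0.05. It was tested on simulated data. Alternatives were other pseudocounts, filters and scalings, edgeR (4.0.16), DESeq2 (1.42.0) on the recovered reads, a replicate block and leaving out each library. The batch field of the labels holds the replicate number, so libraries of equal number were taken as pairs. Their deviations from the group means correlated at 0.07, 0.02, 0.25 and 0.33 for numbers 1 to 4, and knockout 5 has no partner. Libraries of unequal number correlated at -0.29 (control 3 with knockout 4) to 0.21 (control 4 with knockout 5), so the pairing is uncertain. Positions and transcripts came from GENCODE 29, promoters from RefSeq (the first entry of a symbol), and alignments from blastn 2.17.0. Shared sequence is the share of a gene's 31-base words found in another gene.

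The members, gene lists and tests were chosen with earlier results of these data known. Named were members called by limma or by the authors, the 10 most abundant, the 5 highest and 5 lowest fold changes, a list of studied LINC genes and the 3 members nearest the threshold (29 in all); members named for another reason are LINC00960, the 9 with an ESRG alignment, the rest of the studied list, the sharing examples and the 2 with an octamer match. Counting intervals do not cover variation between passages. The aligned sequences themselves are not reported here.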

Additional observations from a re-analysis of the deposited data

Results flagged for a closer look

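Among the named members, 58 groups of 4 or 5 libraries were screened for a library far from the others, and 2 were found, where about 1 in 20 is expected by chance. LINC00511, a lncRNA studied in cancers, read 53.6 normalized counts in knockout 3, while the other knockout libraries read 106 to 125. LINC00294 read 124 normalized counts in control 3, while the other control libraries read 89.4 to 94.6. Both groups overlapped with the other clone, and neither gene was called.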

How the results depend on the processing

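Against 6 LINC-named members and 150 rows called by limma, DESeq2 called 12 and 593, and the fit with the replicate block called 2 and 43. Leaving out 1 library gave 3 to 6 members and 79 to 186 rows. Members whose clones do not overlap numbered 12 with all libraries and 12 to 19 with 1 left out (19 without control 4, where 8.56% of all tested rows do not overlap, against 3.95% with all libraries), which can only keep or raise this count; quantile normalization gave 10. With no filter on low counts 5 members were called. In all settings the median fold change of the members stayed within 1 SD of the library medians (0.15). The log2 fold change of LINC00273 turned positive with TMM (0.0149), quantile normalization (0.22), edgeR (0.0642), DESeq2 (0.0552) and the replicate block (0.27), and ranged from -0.3472 to 0.27 with 1 library left out. With 1 library left out, LINC01002 ranged from -0.0759 to 0.2983, LINC00511 from -0.2670 to 0.16, LINC00294 from -0.0035 to 0.1667 and LINC02449 from -0.12 to 0.27. LINC02449 stood at -0.0009 with the replicate block. The causes were not tested. Over the single genes, 471 values kept direction and side of the threshold, 27 no longer passed, 6 newly passed and 18 changed sign. Members near 100 normalized counts rest on few reads, with a library median of 109 to 258 reads per member.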
